A study of Gallus gallus with 50 samples.

Results

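The genes described here are the 100 gene IDs, of 20392 in the deposited table, that were on in a larger share of FDQ than of EMR motor neurons of the chicken embryo. They were chosen from the measured values. Cells with a count for at least 5000 gene IDs were called gene-rich, and a gene was on in a cell at 5 CPM (counts scaled to 1000000 per cell) or more. Gene IDs were ranked by the share of gene-rich FDQ cells on minus the share of gene-rich EMR cells on, and the leading 100 became the members. All 100 are accounted for below.

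The cells came from day 9 chicken embryos, from the spinal cord. Motor neurons were marked by a fluorescent tracer that travelled back along the axon from 1 of 2 muscles, written EMR and FDQ in the labels, and were picked by hand after papain dissociation. SMART-seq2, which amplifies the poly(A) RNA of a single cell, gave 32 EMR cells and 18 FDQ cells. The labels name no strain, embryo, plate or day for a cell, so each muscle is 1 sample and the values are given without p-values. Intervals are given for summed counts and cover counting error of reads only. The PCR reads carry no molecular identifiers.

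Motor neurons that supply the same muscle lie together in the spinal cord as a motor pool. Pools are known to differ in transcription factors and in surface molecules that steer the axon to its muscle and sort the cell bodies into groups. A single cell yields little RNA, so a transcript that is present at a low level can be missed, and a gene that is off in these data may still have been expressed.

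The file gives Ensembl gene IDs without names. The RefSeq gene table at hand follows another build and matched 0 of the 20392 IDs, hence 0 of the members. Functions, sequences and the motor neuron markers that would check the labelled cell type are therefore not described. The 2 leading members are given by ID and the others by their rank.

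The 50 cells fell into 25 gene-rich and 25 gene-poor cells. Of the gene-rich cells, 9 were FDQ and 16 were EMR. Total counts ranged from 4594353 to 8245621 in gene-rich FDQ cells and from 2022623 to 11014823 in gene-rich EMR cells. Gene-rich FDQ cells had a median of 7225 IDs on (range 5782 to 8032), and gene-rich EMR cells had a median of 6608 (range 2939 to 8998). Detection was thus somewhat broader in FDQ. Over the 14755 IDs on in at least 1 gene-rich cell, the share on was higher in FDQ for 58.1%, with a mean difference of 5.70 percentage points. The part of this general shift in the members' values was not tested.

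Before any result, a pair of gene-rich cells lay nearest to the other muscle in the number of members on. The FDQ cell F8 had 62 members on, the fewest of the FDQ cells, and the EMR cell E19 had 50, the most of the EMR cells. By these values, which the rule used, F8 still had more members on than any EMR cell. The same cells stood apart in lists chosen without them. In profiles built from other genes both, and also E6, lay nearest to a cell of the other muscle, as given below. Whether the labels of F8 and E19 are right was not tested. An exchanged label would change the members and every share, so the main values that rest on these cells are also given without both.

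The leading member, ENSGALG00000053670, was on in 8 of 9 gene-rich FDQ cells (88.9%) and in 0 of 16 gene-rich EMR cells, the shares by which it was chosen. Its level in the FDQ cells ran from 3.51 CPM in F16 over a median of 11.7 CPM to 33.1 CPM in F12. All 9 FDQ cells held at least 1 count, and F16 alone lay under 5 CPM. In EMR, 11 of the 16 gene-rich cells had no count. The other 5 reached at most 4.24 CPM, in E19, and that cell held 68.8% of the 64 EMR counts. The levels of the muscles overlapped only through F16, which lay below E19. Summed over gene-rich cells, FDQ reached 13.98 CPM (exact Poisson interval 13.04 to 14.96) and EMR 0.554 CPM (0.427 to 0.708). Without F8 and E19 the sums were 13.06 and 0.190 CPM.

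The second member, ENSGALG00000015219, was on in 8 of 9 gene-rich FDQ cells and in 1 of 16 gene-rich EMR cells (6.25%). The FDQ cells ranged from no count in F8 over a median of 40.7 CPM to 89.0 CPM in F12. E19 was the EMR cell that had it on, at 46.9 CPM, within the FDQ range, and it held 85.3% of the EMR counts. E22, E17 and E14 stayed under 5 CPM and the other 12 EMR cells had no count. Summed over gene-rich cells, FDQ reached 40.6 CPM (39.01 to 42.3) and EMR 4.94 CPM (4.54 to 5.36). Without F8 and E19 they were 44.4 and 0.799 CPM, and no EMR cell had it on. Both leading members were on together in 7 of 9 gene-rich FDQ cells. F16 had the leading member below the threshold and F8 had no count of the second, so every gene-rich FDQ cell had at least 1 of the pair on.

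The members of ranks 3 to 12 were on in 7 to 9 gene-rich FDQ cells and in 1 to 4 gene-rich EMR cells. The member of rank 3 was on in all 9 FDQ cells, at 12.4 to 113 CPM with a median of 30.8 CPM. It was on in 3 of 16 EMR cells, where its highest level was 25.4 CPM, in E21. The members of ranks 5, 6, 7 and 8 shared one pattern of counts, 9 of 9 FDQ cells and 4 of 16 EMR cells. Of these, the member of rank 7 ran from 13.1 to 136 CPM in FDQ with a median of 46.6 CPM. Its median in EMR was 0 CPM, yet E21 held it at 494 CPM.

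Across all members, the difference in share had a median of 57.6 points and ran from 52.8 to 88.9 points. On in all 9 gene-rich FDQ cells were 23 members, in 8 cells 29, in 7 cells 22, in 6 cells 22 and in 5 cells 4. In gene-rich EMR cells, 9 members were on in none, 11 in 1 cell, 15 in 2, 8 in 3, 21 in 4, 18 in 5, 8 in 6 and 10 in 7. The members included both near-ubiquitous FDQ genes and genes of fewer cells. Those on in all 9 FDQ cells were on in 3 to 7 EMR cells, while the 4 on in 5 FDQ cells were on in no EMR cell. The upper limit of 7 EMR cells and the absence from EMR of those 4 are fixed by the cut at 52.8 points. Only 2 members had no count at all in any gene-rich EMR cell.

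The lower end of the list was a tie. A difference of 52.8 points was shared by 21 IDs, of which 11 were members. The last 2 members and the next 2 IDs in the ranking were each on in 7 of 9 FDQ and 4 of 16 EMR cells. Their order came from the mean log2(CPM + 1). The same rule run in the opposite direction gave 100 IDs on in more EMR cells, called the EMR list here, whose differences were smaller, from 37.5 to 75 points with a median of 45.1 points. The numbers of cells, 9 and 16, give shares of different step size, so these ranges are not a comparison of the muscles.

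**Figure D1:**
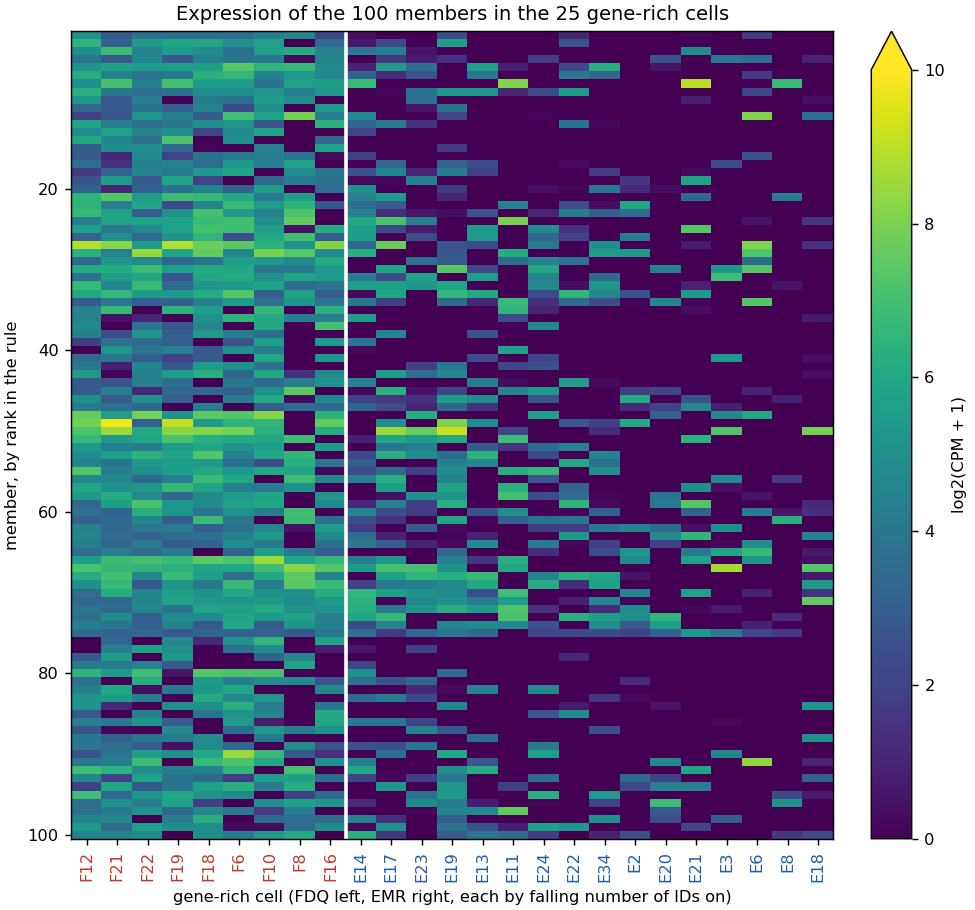
Expression of the 100 members (rows, by rank) in the 25 gene-rich cells (columns, 9 FDQ left of the white line and 16 EMR right of it), as log2(CPM + 1), with values over 10 in the top colour. The FDQ columns are filled apart from gaps that are most frequent in F8 and F16, and the EMR columns hold scattered entries of similar level, most numerous in E19. The rows were chosen for this contrast.

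The contrast was largely one of presence and absence. Of the 900 pairs of a member and a gene-rich FDQ cell, 745 were on (82.8%), 105 had no count (11.7%) and 50 had a count below 5 CPM (5.56%). Of the 1600 pairs in gene-rich EMR cells, 357 were on (22.3%), 1009 had no count (63.1%) and 234 had a count below the threshold (14.6%). For all IDs on in a gene-rich cell, 48.6% of the pairs were on in FDQ and 42.9% in EMR. No count was found in 41.8% of these pairs in FDQ and 46.9% in EMR. Without F8 and E19, 85.4% of the member pairs were on in FDQ and 20.5% in EMR. The members were not chosen again for this. F8 had the fewest members on in FDQ and E19 the most in EMR, so leaving them out can only widen the contrast. Where a member was on, its median level was 30.2 CPM in FDQ and 27.3 CPM in EMR. Over all IDs on in a gene-rich cell, the levels where on had medians of 45.6 CPM in FDQ and 50.3 CPM in EMR. The levels where on were thus similar between the muscles when pooled over members. Different members make up the pairs that were on in each muscle, and no member was compared with itself here. These values come from the contrast that chose the members and are a description. Gene lengths were not used, so levels are not compared between single genes.

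The mean level and the share of cells could point apart. The mean CPM over gene-rich cells was higher in EMR than in FDQ for 5 members, those of ranks 7, 34, 65, 73 and 97. For rank 7 the means were 56.9 CPM in FDQ and 61.2 CPM in EMR, with 69.5% of the EMR counts in E21. For rank 34 they were 18.4 CPM in FDQ and 20.9 CPM in EMR, where E6 reached 162 CPM. A single EMR cell held over 50% of the gene-rich EMR counts for 48 members, against 3 members for a single FDQ cell in FDQ. Without F8 and E19 that number was 52 in EMR, and the same 5 members had the higher mean in EMR. The choice of members favours the contrast of 48 with 3, as it asks for a larger share of FDQ than of EMR cells on. No such number was taken over all IDs, and whether the members differ from other genes in this was not tested. The cell with most EMR counts, by CPM, was E19 for 13 members, E11 for 12, and E14 and E17 for 10 each.

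The number of members on per cell did not overlap between the muscles in gene-rich cells, a separation that the choice of members favours. Over all IDs the share on per cell did overlap, from 28.4% to 39.4% in FDQ and from 14.4% to 44.1% in EMR. Gene-rich FDQ cells had a median of 86 members on (range 62 to 92) and gene-rich EMR cells a median of 20.5 (range 4 to 50). With each cell thinned to 200000 counts and a gene on at 1 count, the medians were 84 (range 61 to 87) and 22.5 (range 8 to 48). Without F8 and E19 the range was 70 to 92 in FDQ and 4 to 41 in EMR. Here too the members were kept, so the wider gap follows from removing the extreme cells. Among EMR cells the numbers went with breadth of detection. E8, with 3393 IDs on, had 4 members, and E14, with 8998 IDs on, had 41. E19 had more members than E14 with 7465 IDs on. In FDQ the cells F16 and F8 were the lowest, with 70 and 62 members on. F16 also had the fewest IDs on of the FDQ cells (5782), whereas F8 had 6670.

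**Figure D2:**
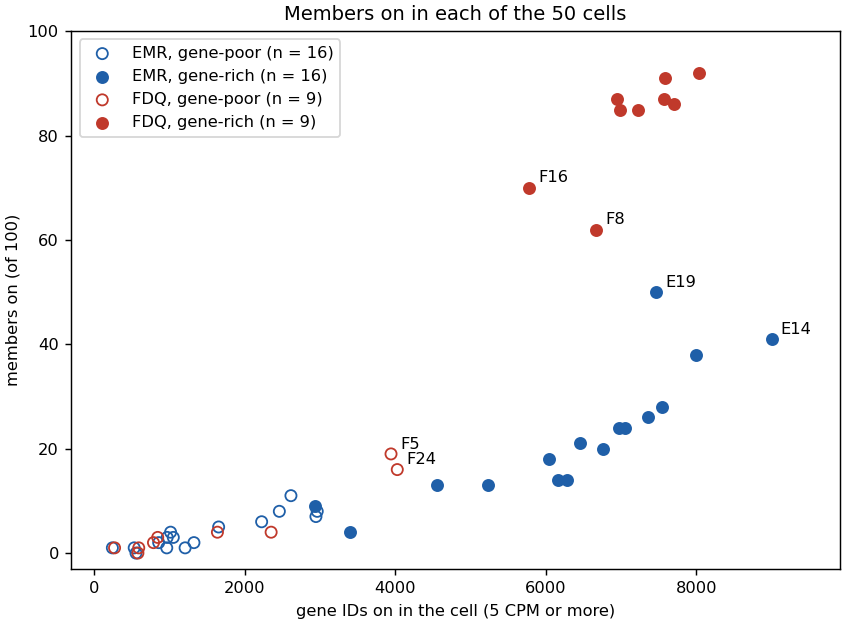
Members on (of 100) against all gene IDs on in each of the 50 cells. Filled circles are gene-rich cells, which chose the members, and open circles are gene-poor cells, which did not. Gene-rich FDQ cells lie at 62 to 92 members and gene-rich EMR cells at 4 to 50, while gene-poor cells of both muscles lie at 0 to 19.

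All gene-rich cells chose the members. Lists made by the same rule were therefore examined by leaving out each gene-rich cell in turn, an alternative added after seeing the data. These new FDQ lists shared 71 to 95 IDs with the members, so they describe the rule and not the members themselves. The rule was run again on the other 24 cells, once toward FDQ and once toward EMR, and both new lists of 100 were counted in the cell left out. In left-out FDQ cells a median of 65 IDs of the FDQ list were on (range 34 to 78) and 37 of the EMR list (range 27 to 55). In left-out EMR cells a median of 40.5 IDs of the FDQ list were on (range 9 to 65) and 43 of the EMR list (range 24 to 81). The FDQ list was thus on more often in left-out FDQ cells, though the ranges overlapped widely. Over all IDs the same cells had medians of 35.4% on in FDQ and 32.4% in EMR. The part of this breadth of detection in the separation was not tested. The separation of the FDQ list was much smaller than among the cells that chose the members.

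Within a cell both lists are read at the same depth and breadth of detection, but the lists may differ in how readily they are detected. In gene-poor cells, 79 IDs of the main EMR list, 56 members and 57.5% of all IDs were on in at least 1 cell. Equal numbers are therefore not a neutral point. The FDQ list had more IDs on than the EMR list in 8 of 9 left-out FDQ cells, by 14 to 37 IDs. It had more in 1 of 16 left-out EMR cells, the same number in 2 and fewer in 13. The FDQ cell against this order was F8, with 34 IDs of the FDQ list and 55 of the EMR list on. The EMR cell was E19, with 65 of the FDQ list and 42 of the EMR list on. F8 and E19 kept these positions at thresholds of 1 and 10 CPM and after thinning every cell to 200000 counts. In those settings 2 or 3 EMR cells, E19 among them, had more of the FDQ list on. With F8 and E19 left out throughout, all 8 FDQ cells had more of the FDQ list and all 15 EMR cells more of the EMR list, but these cells were removed for being the exceptions. Embryo, day and plate of the cells are not in the labels. Cells that shared one of these cannot be told apart from cells that shared only the muscle.

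**Figure D3:**
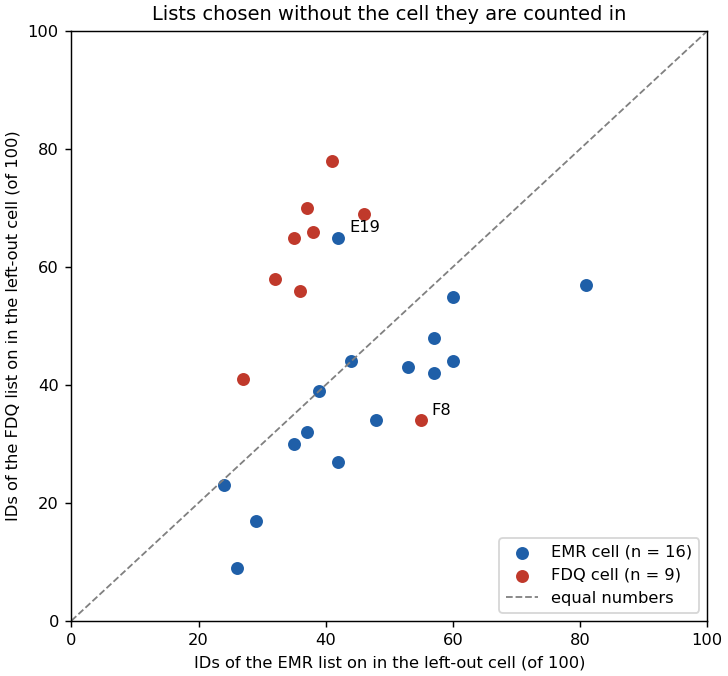
Number of IDs on in each left-out gene-rich cell, from the EMR list (horizontal axis) and the FDQ list (vertical axis), both chosen from the other 24 cells. Of the 9 FDQ cells, 8 lie above the dashed line of equal numbers and F8 lies below it, and of the 16 EMR cells E19 alone lies above it.

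The whole profiles were also compared, without the members and the EMR list. Spearman's correlation of log2(CPM + 1) was taken between gene-rich cells over 11800 IDs with a count in at least 5 of them. It is a correlation across genes, which are not independent, and it depends on detection in both cells. Every cell of either muscle had a higher median correlation with FDQ than with EMR cells, by 0.0127 to 0.0738 in FDQ cells and by 0.00241 to 0.0756 in EMR cells. F8 had the smallest excess of the FDQ cells and E19 the largest of the EMR cells. The cell most like F8 was E14, at 0.559, and the cell most like E19 was F21, at 0.733. E14 had the most IDs with a count of all cells, 11813, and was also the cell most like E11, E18, E21 and E8. F8 had the lowest median correlations of the FDQ cells, 0.520 with FDQ and 0.508 with EMR cells. E18, E21 and E8, whose correlations were lower still, had smaller excesses, 0.00241 to 0.00864. E11 was also lower than F8, at 0.512 with FDQ and 0.491 with EMR cells, but had a larger excess, 0.0214. What the profile of F8 says of its label was not tested. The nearest cell was of the same muscle for the other 8 FDQ cells and for 14 of 16 EMR cells, E6 being the EMR exception beside E19.

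The gene-poor cells, 9 FDQ and 16 EMR, were not used by the rule that chose the members. In them 56 of the 100 members were on in at least 1 cell and 44 in none. This was near the share over all IDs, of which 11729 of 20392 (57.5%) were on in at least 1. The share on was higher in FDQ for 33 of the 56 (58.9%) and higher in EMR for 23 (41.1%). Over the 11729 IDs on in at least 1 gene-poor cell, the share was higher in FDQ for 52.6% and higher in EMR for 47.4%. The members' split was near this background. The EMR list gave nearly the same split, with 43 of 79 IDs higher in FDQ (54.4%). The median difference in share was 0 points over the members and 0 points over all IDs. The mean difference, FDQ minus EMR, was 1.62 points over the members, 0.964 points over all IDs and 0.910 points over the EMR list.

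Few members were on in any one gene-poor cell. FDQ cells had a median of 3 members on (range 0 to 19) and EMR cells a median of 3 (range 0 to 11). F5, with 19, and F24, with 16, were the highest FDQ cells and also had the most IDs on of all gene-poor cells, 3944 and 4027. The EMR cells with most members on were E5, with 11 members and 2615 IDs on, and E29 and E9, with 8 members each. Per 1000 IDs on, the members numbered 4.82 in F5, 3.97 in F24, 4.21 in E5 and 2.70 in E29. Of all pairs of a member and a cell, 5.56% were on in FDQ and 3.94% in EMR, below the 8.20% and 7.24% over all IDs in the same cells.

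The size of the lean toward FDQ changed with the cells counted, and over all IDs it changed likewise. In gene-poor cells with at least 1000 IDs the mean difference was 3.64 points over the members and 3.12 points over all IDs, with 36 of 55 members higher in FDQ (65.5%) against 58.8% of all IDs. With at least 2000 IDs, which left 4 FDQ and 9 EMR cells, it was 5.08 and 4.65 points, with 33 of 52 members higher in FDQ (63.5%) against 60.4%. Without F5 the mean difference over the members was −0.0625 points, and no value over all IDs was taken there. Without F5 and F24 it was −1.79 points, against −2.28 points over all IDs, and the share on was higher in FDQ for 13 of 43 members (30.2%), against 33.3% of all IDs in the same cells. In shallow cells 1 count exceeds 5 CPM, so the gene-poor cells were also thinned to 200000 counts, which kept 7 FDQ and 14 EMR cells and left out 2 of each muscle. Then 29 of 61 members were higher in FDQ (47.5%) and 27 in EMR, against 50.5% of all IDs higher in FDQ, and the mean difference was 1.86 points over the members and 1.88 points over all IDs. With the members chosen again without F8 and E19, 33 of 59 were higher in FDQ (55.9%) and 26 in EMR. Whether the members differ from other genes in this lean was not tested, and the number of gene-poor cells and their depth limit these values.

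**Figure D4:**
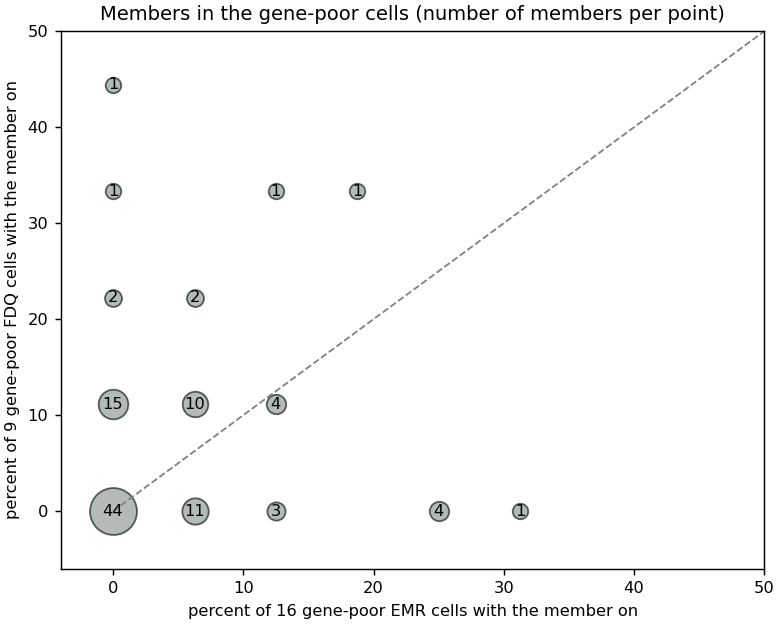
Share of the 16 gene-poor EMR cells (horizontal axis, percent) and of the 9 gene-poor FDQ cells (vertical axis, percent) in which a member was on, with the number of members written at each point and the dashed line at equal shares. The point at 0% in both holds 44 members, 33 members lie above the line and 23 below it. Of all 20392 IDs, 57.5% were on in at least 1 gene-poor cell, and 52.6% of those were higher in FDQ.

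Single members behaved differently in these cells. The leading member, ENSGALG00000053670, had no count in any gene-poor FDQ cell. In gene-poor EMR cells it had 335 counts, all in E29 at 147 CPM, above every gene-rich FDQ cell. Against a floor of 3 counts over the FDQ cells, its summed level was 83.6-fold lower in FDQ. This was the opposite of the gene-rich cells and came from that 1 cell. The second member, ENSGALG00000015219, was on in F24 at 11.96 CPM and in F5 at 5.93 CPM and had no count in the 16 gene-poor EMR cells. Its summed level was 37.4-fold higher in FDQ against the same floor over the EMR cells, and 19.9-fold without F24. No other gene-poor FDQ cell had a count of it, so nothing is left without F5 and F24. These folds are of pooled reads against the floor of 3 counts. They cover neither transcripts missed in a cell nor differences between cells.

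The members on in the most gene-poor FDQ cells were those of rank 42, on in 4 of 9 FDQ and 0 of 16 EMR cells, and rank 24, on in 3 FDQ and 0 EMR cells. The members of ranks 7 and 67 were on in 3 FDQ cells each and in 2 and 3 EMR cells. In the other direction, the members of ranks 18, 27, 47 and 61 were each on in 4 of 16 EMR cells, that of rank 34 was on in 5, and none of these was on in a gene-poor FDQ cell. The member of rank 27 shows the contrast: it was on in all 9 gene-rich FDQ cells with a median of 210 CPM, had no count in gene-poor FDQ cells, and reached 1019 CPM in a gene-poor EMR cell. These ranks were singled out after their values were seen.

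Co-expression within the FDQ cells was not used by the rule. The members' correlations there were distributed like those of other genes. Over the 9 gene-rich FDQ cells the Spearman correlation of log2(CPM + 1) had a median of 0.0167 over the 4950 pairs of members, with quartiles of −0.259 and 0.283. Over all pairs of the 6979 IDs on in at least 5 of these cells the median was also 0.0167, with quartiles of −0.250 and 0.283. Correlations of at least 0.7 made up 2.38% of the member pairs and 2.91% of all pairs. The 23 members on in every FDQ cell, in which only the level can vary, had a median of 0.0333 over 253 pairs, against 0 over all pairs of the 2762 IDs on in every FDQ cell. Without F8 and E19, and with the members chosen again, the median was 0 over 8 FDQ cells, against 0.0238 for all IDs. Each value rests on 8 or 9 cells, and pairs share those cells, so they are a description.

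**Figure D5:**
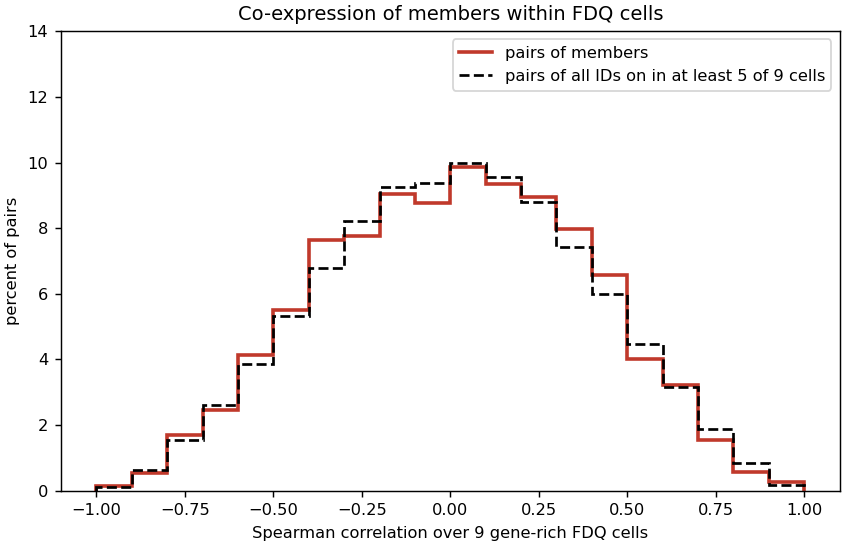
Distribution of the Spearman correlation over the 9 gene-rich FDQ cells, in steps of 0.1, for the 4950 pairs of members (solid red) and for all pairs of the 6979 IDs on in at least 5 of those cells (dashed black). The outlines nearly coincide, and both have a median of 0.0167.

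The on-off patterns of the members within FDQ rest on values that the rule used, and no patterns were counted over all IDs. The members took 47 patterns over the 9 gene-rich cells, and 34 of these were held by 1 member. After the 23 members on everywhere, the most frequent patterns were off in F8 alone, with 13 members, and off in F16 alone, with 9 members. No other pattern had more than 3. F8 lacked 38 members and F16 lacked 30, of which 8 were lacking in both. The rule disfavours IDs that are off in several FDQ cells. Whether the gaps of F8 and F16 fall apart more than in other genes was not tested. The other 7 FDQ cells lacked 8 to 15 members each, and 45 members were on in all 7. Without F8, 36 members were on in all 8 FDQ cells, 9 were off in F16 alone, and no other pattern of the 35 had more than 4.

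In gene-rich EMR cells the 91 members on in at least 1 cell had a median pair correlation of 0.113 over 16 cells, against 0.0560 for all pairs of the 7450 IDs on in 1 to 7 of them. The members' correlation with the number of IDs on in the cell had a median of 0.379, against 0.275 for those IDs. In FDQ the corresponding medians were 0.00833 for the members and 0.100 for IDs on in at least 5 cells. The number of EMR cells on was used by the rule, and the members and those IDs were not matched for it. No value was taken without E19, which had 50 members on. The part of these and of the number of IDs on in the EMR value was not tested.

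The list itself depended on single cells and on the threshold. Leaving out 1 gene-rich cell kept 71 to 95 of the 100 members, with the fewest kept without F10, F16 or F6, and 51 members were kept in all 25 such lists. Ranks 1 to 36 were kept in every one, the first lost being rank 37. With F8 and E19 both left out, 73 members were kept. A threshold of 1 CPM kept 57 members, 10 CPM kept 55, and thinning to 200000 counts kept 58.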

How the data were processed

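The authors deposited raw read counts for 20392 Ensembl gene IDs in 50 single cells; the unit follows from the values, whole numbers with unequal column sums (36138 to 11014823). Per the submitters' processing notes, the build was GRCg6a and the tools were HTSeq 0.6.1, STAR 2.5.2 and Trimmomatic 0.39, with no roles given. The strand setting, the annotation release and how multiple matches were counted are not stated in the labels, which leaves the counts of near-identical, antisense and overlapping genes uncertain. The muscle came from the sample titles.

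CPM was the count divided by the column sum, times 1000000, and log2 values took a pseudocount of 1 CPM. Thinning drew counts without replacement with a fixed seed. Sums of counts have exact Poisson 95% intervals; shares of cells are given without intervals, since the cells are not replicates of a muscle. For a group at 0 a floor of 3 counts, over the whole group, was used. With 1 sample per muscle no count model was fitted. Cells were not clustered, and no doublet caller was run on hand-picked cells. Python 3.11.15, scipy 1.17.1 and, for one scaling alternative (TMM), edgeR 4.0.16 were used. The selection code was run on simulated counts with planted changes and no added loss of transcripts. That run checks the code and does not show how the rule performs on these cells.

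The members, lists and alternatives were chosen with earlier results of these data known. The 2 leading IDs are named because the file pairs no ID with a name; the rule asked for 25 symbols where names existed. The marker lists written down for motor neurons and other cell types could not be matched and were not used here.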

Additional observations from a re-analysis of the deposited data

Results flagged for a closer look

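A cell far from the others was searched for in 14 sets of values, over the 9 gene-rich or the 9 gene-poor FDQ cells. A rate of about 1 in 20 sets marked by chance was assumed and not measured here, and the sets share values. Both marks fell on F8. It had 30 IDs of the EMR list on, while the other 8 FDQ cells had 8 to 18. It also had 9.295 members per 1000 IDs on, the lowest of the FDQ cells, whose median was 11.8. Both lists were chosen with F8 among the cells.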

How the results depend on the processing

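Of 64 values under alternatives other than leaving out 1 cell, 43 stayed within 1.5 times the main count or within the interval set around the main value. For numbers and differences in gene-poor cells, that interval treats pairs of a member and a cell as independent, which they are not. The median difference in share stayed at 0 points throughout, with 44 members on in no gene-poor cell. The tally of 43 is thus a label and no measure of stability. Of the 100 members, 57 were kept at 1 CPM, 55 at 10 CPM, 57 with cells of at least 4000 IDs, 58 after thinning to 200000 counts, 54 when ranked by mean log2(CPM + 1) and 64 without F8 and F16. The mean number of members on per gene-poor EMR cell, 3.94 as reported, was 5.56 at 1 CPM, 5.29 after thinning and 5.67 in cells with at least 2000 IDs. In FDQ it was 5.56 as reported, 8 in cells with at least 1000 IDs, 10.8 in cells with at least 2000 IDs and 2.14 without F5 and F24. The mean difference in gene-poor share, 1.62 points, was 3.64 and 5.08 points in cells with at least 1000 and 2000 IDs. Over all IDs it was 0.964 points, and 3.12 and 4.65 points in those cells. The members' value turned to −0.0625 points without F5. Without F5 and F24 it was −1.79 points, against −2.28 points over all IDs. Then 13 of 43 members were higher in FDQ (30.2%), against 33.3% of all IDs. The cause of these changes was not tested. With each gene-poor cell left out in turn, the mean difference over the members ran from −0.0625 to 2.31 points. The mean number of members per FDQ cell ran from 3.88 to 6.25. The members higher in FDQ ran from 23 to 35 and those higher in EMR from 19 to 25. No values over all IDs were taken with 1 cell left out, so these ranges are not a trait of the members. EMR cells with more of the FDQ list than of the EMR list, 1 as reported, numbered 3 at 1 CPM, 3 at 10 CPM, 2 after thinning and 0 without F8 and E19. The median pair correlation in FDQ was 0 to 0.0238 with each cell left out. For the leading member no sum without its top gene-poor cell was given, as both muscles then had no count; means of per-cell CPM gave no fold against a muscle at 0. No paired analysis was possible because the labels tie no number shared by an EMR and an FDQ cell to an embryo, plate or day. The number of cells and depth limit these values: 1 count at 200000 counts is 5 CPM.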
